A study of Mus musculus with 11 samples.

Results

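The proteasome subunit genes are the genes whose symbol is Psma, Psmb, Psmc, Psmd or Psme followed by a number. They were taken from the probe sets annotated with a single gene symbol, and each gene was read by its brightest probe set over all 11 arrays. This gave 43 genes, read by 49 probe sets, of 19938 genes with a single symbol. Of these, 8 encode alpha ring subunits of the 20S core, 7 standard beta ring subunits, 4 inducible or tissue-restricted beta subunits, 6 the ATPases of the 19S particle and 11 its non-ATPase subunits. A further 3 encode chaperones of 19S assembly that carry a Psmd name, and 4 encode activator proteins that cap the core. The expression of 40 of the 43 genes lay above the 40th percentile of all genes (log2 6.99) and was tested. The others were Psma8, whose product replaces a standard alpha subunit in the testis, Psmb8, an interferon-inducible catalytic subunit, and Psmb11, the catalytic subunit of the thymus.

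The study hybridised RNA from the nucleus accumbens, the ventral striatum, to Affymetrix Mouse Gene 1.0 ST arrays, with 1 array for each of 11 male mice aged 4 to 5 months. The tissue was enriched in the shell and came from behaviourally untested animals. There were 6 wild-type (WT) mice and 5 RARβ-null mutants, here called Rarb-null, which lack the retinoic acid receptor gene Rarb. Mutants and WT animals were littermates, bred from heterozygotes, and shared a background mixed from C57BL/6J and 129SvEms/j. The structure of the null allele and the strain in which it was made are not given in the sources used here. Values are log2 expression after robust multi-array analysis (RMA). Differences are Rarb-null minus WT in log2 units from a linear model fitted with limma to all 11963 genes above the filter, with Benjamini-Hochberg adjustment over all of them and a threshold of 0.05. Each level is a mean ± SD over the arrays of a genotype (n = 6 WT, n = 5 Rarb-null).

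The proteasome is the protease complex that degrades proteins tagged with ubiquitin. Its 20S core is a barrel of stacked rings, with alpha subunits that form the gate and beta subunits that carry the catalytic sites inside. The 19S particle sits on the core, where its lid and base recognise tagged proteins, remove the ubiquitin chains and, through a ring of ATPases, unfold and feed the substrate inwards. Transcription of the subunit genes is known to rise together when proteasome activity is blocked, through the factor Nfe2l1 and antioxidant response elements in their promoters. In neurons the complex takes part in protein turnover at synapses, and aggregated mutant huntingtin contains ubiquitin and proteasome subunits.

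Because the genes are known for shared promoter control, the promoters of 4 members are shown, from 250 bases before the start site to 50 bases after it, as given by RefSeq for build GRCm38.p6. They are Psmd6, which had the largest difference of the members, Psmb9, which rose, Psmd2, which had the smallest difference, and Psmb5, a catalytic subunit gene whose promoter holds the antioxidant response element core. Capitals mark the matches to any of 7 searched motifs on either strand. Psmd6 lies at chr14:14120896-14121195 on the reverse strand, Psmb9 at chr17:34187281-34187580 on the reverse strand, Psmd2 at chr16:20651402-20651701 on the forward strand and Psmb5 at chr14:54617946-54618245 on the reverse strand.
Psmd6: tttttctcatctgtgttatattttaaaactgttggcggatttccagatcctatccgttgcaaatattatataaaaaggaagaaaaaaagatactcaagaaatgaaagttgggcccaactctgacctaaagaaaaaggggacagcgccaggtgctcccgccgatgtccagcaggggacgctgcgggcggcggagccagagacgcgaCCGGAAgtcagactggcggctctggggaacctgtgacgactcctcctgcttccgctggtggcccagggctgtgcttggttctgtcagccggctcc
Psmb9: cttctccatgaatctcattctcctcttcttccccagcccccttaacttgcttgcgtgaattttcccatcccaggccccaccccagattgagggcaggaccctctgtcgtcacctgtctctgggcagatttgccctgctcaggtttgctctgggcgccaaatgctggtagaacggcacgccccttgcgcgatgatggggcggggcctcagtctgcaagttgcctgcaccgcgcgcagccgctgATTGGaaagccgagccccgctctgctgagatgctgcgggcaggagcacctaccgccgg
Psmd2: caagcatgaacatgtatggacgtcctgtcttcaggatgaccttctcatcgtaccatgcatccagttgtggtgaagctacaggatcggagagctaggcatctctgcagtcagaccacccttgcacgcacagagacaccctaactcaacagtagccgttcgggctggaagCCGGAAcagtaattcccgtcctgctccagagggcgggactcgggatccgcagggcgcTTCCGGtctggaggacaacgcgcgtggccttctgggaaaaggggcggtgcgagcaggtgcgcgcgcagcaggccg
Psmb5: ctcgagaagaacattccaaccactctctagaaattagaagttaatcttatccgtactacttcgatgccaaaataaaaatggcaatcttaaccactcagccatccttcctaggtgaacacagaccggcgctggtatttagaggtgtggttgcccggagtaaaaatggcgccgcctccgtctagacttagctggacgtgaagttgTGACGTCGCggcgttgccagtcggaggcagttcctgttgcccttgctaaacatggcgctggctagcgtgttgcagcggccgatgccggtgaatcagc

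The capitals in Psmd6 and both stretches in Psmd2 are ETS cores (CCGGAA, or TTCCGG on the other strand), those in Psmb9 a CCAAT box read as ATTGG, and those in Psmb5 an antioxidant response element core (TGACNNNGC). Promoters of 36 members were matched by symbol among 27025 genes. Psmb1, the other member that rose, had no promoter in the sources used here and is not among the 36. The antioxidant response element core was found in 6 of the 36 (16.7%), against 14.0% of all genes, and the CCAAT box in 14 (38.9%) against 41.1%. The ETS core stood in 17 (47.2%) against 16.7% of all genes. The core of the nuclear respiratory factor site (GCGCA and GCGC with 1 base between) was found in 6 (16.7%) against 5.19%. That of the interferon-stimulated response element (GAAA and GAAA with 2 bases between) was in 4 (11.1%) against 3.99%. For retinoic acid response elements only exact direct repeats were searched, AGGTCA and AGGTCA with 5 or 2 bases between. They were in 0 of the 36 and in 3 and 2 of all 27025 genes. A match this rare cannot tell whether members hold such elements in a less exact form. Matches of different motifs could overlap. The members with the antioxidant response element core were Psmb5, Psmb6, Psmc6, Psmd9, Psmd12 and Psme4, and their median difference was -0.004, against -0.024 for the 28 tested members without it.

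The genotype labels were checked with Rarb, which read 11.75 ± 0.04 in WT arrays and 9.89 ± 0.11 in the mutants, a difference of -1.86 (SE 0.047, limma Benjamini-Hochberg adjusted p = 4.44e-11). Every array labelled null lay below every array labelled WT, although the group sizes are swapped in the extraction protocol. Array medians over all probe sets were 7.02 to 7.06 in WT and 7.08 to 7.11 in Rarb-null arrays. Among the tested genes the medians differed the other way on average, as centring arrays on them raised the differences by 0.04. The small remaining difference between genotypes was thus not the same at all levels of expression. All 10 measured projection neuron markers lay above the filter, and 7 of them fell, where 12% of all genes did. Drd2 (-0.31), Tac1 (-0.39) and Pdyn (-0.22) were among the 7, whereas Drd1 (-0.091, limma adjusted p = 0.0744) and Penk (-0.065, limma adjusted p = 0.103) did not pass. Penk did pass the exact permutation test described below (adjusted p = 0.0267). The mean over 9 cortical neuron markers was 7.35 to 8.12 among WT arrays and 7.97 to 8.59 among Rarb-null arrays. Of these markers 3 of 7 tested were higher, where 7.56% of all genes were, and Neurod1 and Neurod6 lay below the filter. Fezf2, among the 3 (0.41, SE 0.105), lies 18 genes before Rarb on chromosome 14. For this gene loss of the receptor and linked strain alleles cannot be told apart, and it is part of the cortical marker level used below. For 11 oligodendrocyte markers, 5 of them lower, the mean was 9.34 to 9.58 among WT arrays and 9.15 to 9.39 among Rarb-null arrays. Of 10 astrocyte markers 3 fell and 1, Gfap, rose, and their mean was 9.98 to 10.07 among WT arrays and 9.91 to 10.02 among Rarb-null arrays. The part of the astrocyte markers in the results on members was not tested. In tissue punches, fewer cells of a type and less RNA per cell cannot be told apart.

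Most proteasome subunit transcripts stood at nearly the same level in both genotypes, and limma called 3. Psmd6, a subunit of the 19S lid, fell by 0.39, and the 20S gene Psmb1 and the inducible catalytic subunit gene Psmb9 rose by 0.19 and 0.18. These were 3 of 40 tested members (7.5%), where limma called 19.6% of all 11963 genes; 2 rose, where 7.56% of all genes did, and 1 fell, where 12% did. The share of called members thus lay below that of all genes, a difference that was not tested. At an unadjusted p under 0.05 there were 6 members (Psmd6, Psmb1, Psmb9, Psma3, Psma4 and Psmc6), against 35.3% of all genes. At an adjusted p of at most 0.1 it was the same number, against 28.9%. The median difference of the 40 was -0.021, beside -0.017 over all genes tested. The 3 calls were not equally firm. That of Psmb9 held under 11 of 22 alternative settings of the fit, and Psma3 (-0.17) and Psmc6 (-0.15) differed by nearly as much without passing.

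The remaining 37 members had differences between -0.17 (Psma3) and 0.079 (Psmc3). Their 95% intervals reached at most -0.29 on the low side and 0.17 on the high side, and for 34 of the 37 the whole interval lay within 0.2 of 0, which is 1.15-fold. For 8 of them it lay within 0.1, which is 1.07-fold. The half-widths of the intervals over the 40 members ran from 0.056 to 0.152. Psmd2, a large scaffold subunit of the 19S base, gave the smallest difference, -0.001 (SE 0.026), with 11.40 ± 0.01 in WT and 11.40 ± 0.03 in Rarb-null arrays.

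**Figure D1:**
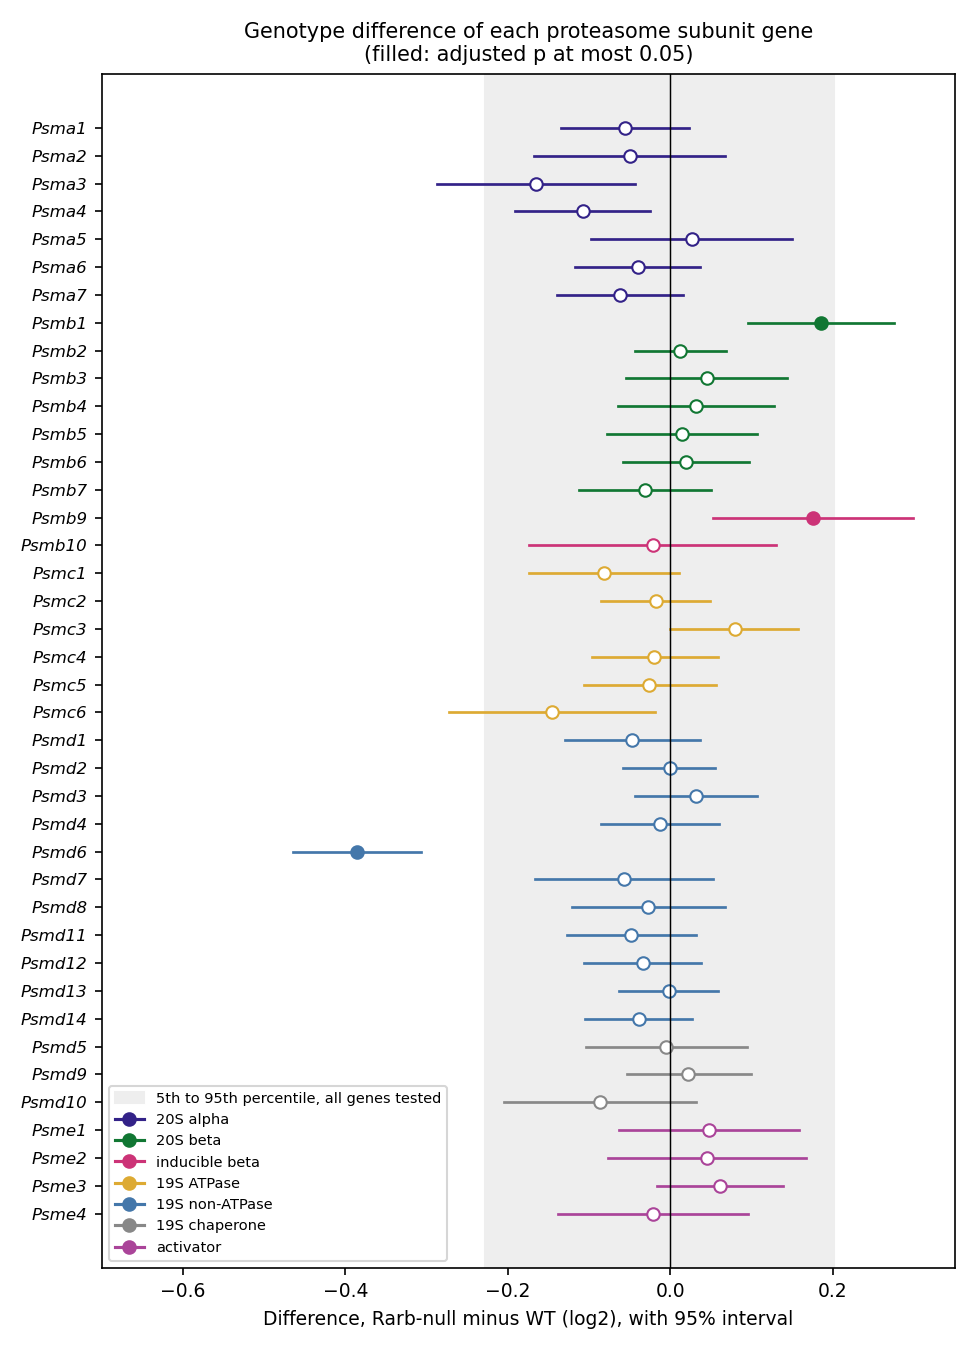
Difference between genotypes for the 40 tested members, in log2 units (Rarb-null minus WT, 6 and 5 arrays) with 95% intervals from the limma fit, coloured by class; filled points had an adjusted p of at most 0.05. Psmd6 stands apart at -0.39, outside the grey band that holds the 5th to 95th percentile of all genes tested (-0.23 to 0.20), and Psmb1 and Psmb9 are the filled points to the right.

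How the arrays were scaled set the sign of the small shifts. Of the 40 members 26 (65.0%) were below 0, beside 57.2% of all genes tested. After centring every array on its median tested gene, 12 of 40 members and 4863 of 11963 genes were below 0, with medians of 0.019 and 0.023. After repeated quantile normalisation the medians were 0.015 for the members and 0.002 for all genes, with 15 members below 0. After cyclic loess they were 0.011 and -0.001, with 16 below 0. The members' median thus lay below that of all genes in the first 2 cases and above it in the last 2. Called members numbered 5 of 40 after centring, against 21.9% of all genes, and 4 of 40 after repeated quantile normalisation or cyclic loess, against 19.7% and 19.8%. Centring brought the split of calls over all genes from 38.7% higher to 64.1% higher, and repeated quantile normalisation and cyclic loess brought it to 50.2% and 48.2%. Psmc3, an ATPase gene, passed the test as a rise under all 3 of these scalings and Psme3, an activator gene, under centring (0.10, adjusted p = 0.0492), whereas Psmd6, Psmb1 and Psmb9 passed under each of them in the same direction.

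**Figure D2:**
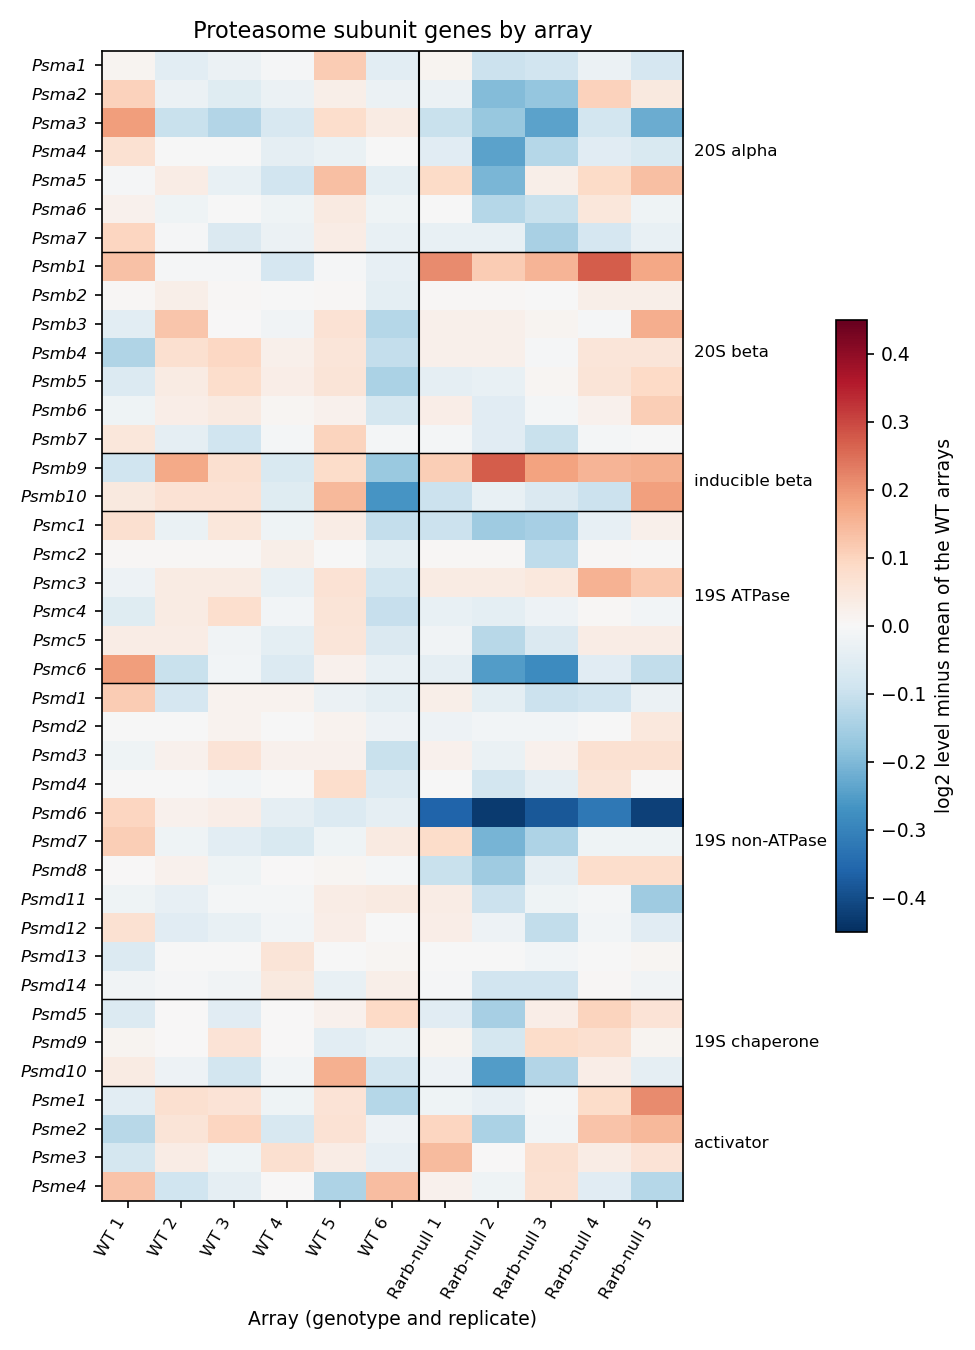
Level of each tested member in each of the 11 arrays as log2 deviation from its mean over the 6 WT arrays (red higher, blue lower), with classes separated by horizontal lines and genotypes by the vertical line. Psmd6 is blue in all 5 Rarb-null arrays, Psmb1 and Psmb9 are red in all 5, and most other rows show no step at the line; Rarb-null replicate 2 holds the lowest value of 16 of the 40 members.

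The low and high values of members gathered in a few arrays. Rarb-null replicate 2 held the lowest value of 16 members, WT replicate 6 that of 11 and Rarb-null replicate 3 that of 7. WT replicate 1 and Rarb-null replicate 5 each held the highest value of 10 members. The median over the 40 members was 10.13 to 10.17 in the WT arrays and 10.04 to 10.17 in the Rarb-null arrays, and only Rarb-null replicate 2 lay below 10.1.

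The alpha ring genes, whose products form the outer rings and gate of the core, had 0 of 7 tested members past the limma threshold, 2 at an unadjusted p under 0.05 and 1 by the exact permutation test below. Their median was -0.056, and 6 of the 7 were below 0 on the deposited scale and 5 of 7 with arrays centred. Psma3 ran from 10.68 to 11.00 in WT, with a median of 10.80, and read 10.71, 10.64, 10.57, 10.73 and 10.59 in Rarb-null replicates 1 to 5. The Rarb-null values overlapped the lower WT arrays. Psma3 differed by -0.17 (SE 0.057), just outside the threshold (limma, Benjamini-Hochberg adjusted p = 0.0571). Its other 2 probe sets gave -0.16 and -0.14. The call was gained without WT replicate 2 (adjusted p = 0.0411) or 3 (adjusted p = 0.0326), with a trended variance (adjusted p = 0.0398), with the stricter filter (adjusted p = 0.049) and with the block for the replicate number (-0.16, adjusted p = 0.0487); over all 23 alternatives the adjusted p ran from 0.0326 to 0.561.

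Psma4, which was picked out after its values were seen, ran from 9.69 to 9.80 in WT, with a median of 9.73, and read 9.68, 9.49, 9.60, 9.68 and 9.66 in the Rarb-null arrays. The genotypes did not overlap, though the lowest WT array lay only 0.013 above the highest mutants. Its difference was -0.11 (SE 0.038, limma Benjamini-Hochberg adjusted p = 0.0636). In a two-sided exact permutation test over all 462 splits of the arrays, Psma4 reached p = 0.00216, the smallest value these splits can give (Benjamini-Hochberg adjusted over the 11963 genes, 0.0267). Psma4 and Psmd6 were the 2 members of 40 whose arrays did not overlap between genotypes, where 11.2% of all genes did not. The exact permutation test called 3 members, Psma4, Psmb1 and Psmd6, and 14.2% of all genes.

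Psma5, the only tested alpha gene above 0 (0.026, SE 0.057), had a further probe set that gave -0.040. Psma1, Psma2, Psma6 and Psma7 lay between -0.062 and -0.040, each less than 2 of its SE from 0. Psma8 read 5.31 ± 0.07 in WT arrays and 5.33 ± 0.09 in the mutants, at the 15.1th percentile of all genes.

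In the beta ring, Psmb1 was the single gene past the threshold, and 6 of 7 genes were above 0 on the deposited scale, with a median of 0.019. In a model that held the cortical marker level 3 of 7 were above 0 (median -0.004), and with that of oligodendrocytes 4 of 7 (median 0.0), and neither fit called Psmb1. The alpha genes above 0 were then 0 and 1 of 7. Psmb1 encodes a beta subunit without a catalytic site. It ran from 10.64 to 10.85 in WT, with a median of 10.71, and read 10.93, 10.83, 10.87, 10.99 and 10.89 in the Rarb-null arrays. The groups overlapped through WT replicate 1, at 10.85, which lay above Rarb-null replicate 2; the other WT arrays were at most 10.71. The difference was 0.19 (SE 0.041, 1.14-fold; limma Benjamini-Hochberg adjusted p = 0.00803) and the exact permutation p was 0.00649 (adjusted 0.0457).

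The rise of Psmb1 passed the test whichever single array was left out (0.16 to 0.21, adjusted p 0.0017 to 0.0228). Cortical marker level as a covariate left its difference at 0.19 with an adjusted p of 0.0576, and oligodendrocyte marker level gave 0.195 and 0.0707. When 3 arrays with extreme cortical marker levels were omitted together (WT replicates 3 and 4, Rarb-null replicate 5), it was 0.17 (adjusted p = 0.0645). The difference was thus about as large in each case, without passing. Tbp, the TATA-binding protein gene, is the next protein-coding gene after Psmb1 on chromosome 17 and rose by 0.12 (SE 0.040, adjusted p = 0.0441), while Fam120b on the other side gave 0.060 (SE 0.034) and did not pass.

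The other 6 beta ring genes, Psmb2 to Psmb7, lay between -0.031 (Psmb7) and 0.045 (Psmb3). The catalytic subunits are encoded by Psmb5, Psmb6 and Psmb7. Psmb5 read 11.95 ± 0.08 in WT arrays and 11.97 ± 0.06 in the mutants, a difference of 0.014 (SE 0.043). Psmb6 gave 0.019 (SE 0.036), and Psmb7 -0.031 (SE 0.037). None of these 3 passed the test under any alternative run, and the sign of each changed under at least 1 of them.

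Within each array the rings could be set against each other, which removes any scale shift common to both. A shift that varies with the level of expression would not be removed. The mean deviation of the 7 alpha genes minus that of the 7 beta genes ran from -0.062 to 0.081 in WT arrays and from -0.159 to -0.052 in Rarb-null arrays, with means of 0 and -0.105. The ranges overlapped: WT replicates 2 and 3 were as low as the upper Rarb-null arrays. Without Psmb1 the Rarb-null mean was -0.080 and the range -0.141 to -0.023. As the classes were chosen with earlier results known, no test is given for this contrast.

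**Figure D3:**
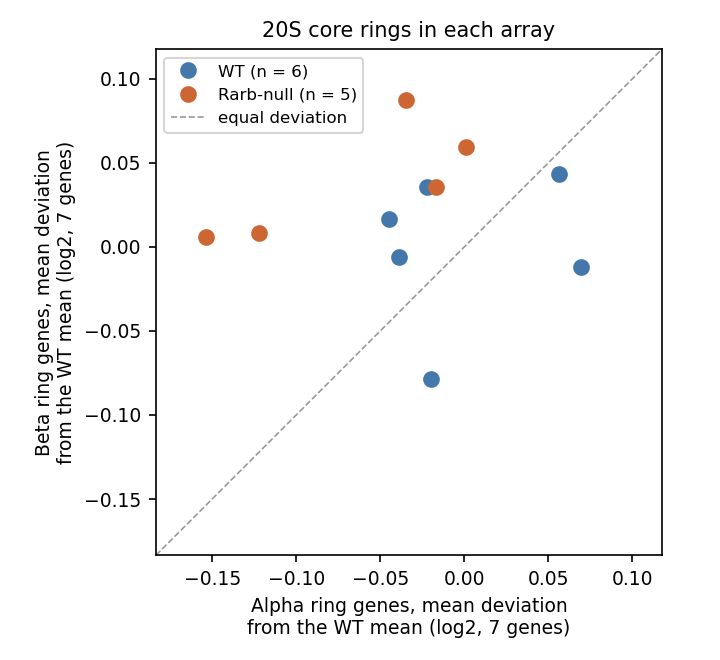
Mean log2 deviation from the WT mean of the 7 beta ring genes (vertical) against that of the 7 alpha ring genes (horizontal), 1 point for each array. All 5 Rarb-null arrays lie above the dashed line of equal deviation, as do 3 of the 6 WT arrays, and Rarb-null replicates 2 and 3 lie farthest to the left.

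The inducible beta subunits replace the catalytic subunits when interferon acts on a cell, and 1 of the 2 tested rose. Psmb9 ran from 7.57 to 7.91 in WT, with a median of 7.74, and read 7.85, 8.01, 7.92, 7.89 and 7.90 in the Rarb-null arrays. The groups overlapped, with WT replicate 2 (7.91) inside the Rarb-null range. The difference was 0.18 (SE 0.057, 1.13-fold; limma Benjamini-Hochberg adjusted p = 0.0467), just inside the threshold, and the exact permutation p was 0.026 (adjusted 0.101). The call was lost without any of 7 arrays (3 in WT, replicates 1, 4 and 6, and 4 in Rarb-null, all but replicate 1), which gave 0.14 to 0.18 and an adjusted p of 0.0691 to 0.111. It was also lost without the filter on dim genes (adjusted p = 0.062), when the model held the cortical marker level (0.13, adjusted p = 0.29) or that of oligodendrocytes (0.15, adjusted p = 0.282), and when the 3 arrays named above were omitted (0.18, adjusted p = 0.134). Over its 22 alternatives the adjusted p ran from 0.0147 to 0.29.

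Psmb10 gave -0.022 (SE 0.070). Psmb8 read 5.76 ± 0.11 in WT arrays and 5.87 ± 0.10 in the mutants and was too dim to be tested; its difference of 0.11 did not pass when the filter was dropped (adjusted p = 0.219). The inducible gene of each pair changed relative to its standard counterpart by 0.16 for Psmb9 over Psmb6, 0.096 for Psmb8 over Psmb5 and 0.009 for Psmb10 over Psmb7, beside SDs between arrays of 0.06 to 0.15. Psmb11 was also too dim, with a difference of 0.072.

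Genes of interferon signalling and class I antigen processing, which act with the inducible subunits, gave 1 rise among 4 tested of 10 listed. The rise was Nlrc5, a transcriptional activator of class I genes, at 0.24 (SE 0.071, limma Benjamini-Hochberg adjusted p = 0.0301; exact permutation adjusted over all genes, 0 of the 4). It passed under 15 of 22 alternatives and did not when any of 5 arrays was omitted (WT replicates 1, 5 and 6 or, in Rarb-null, replicates 2 and 3), at 0.18 to 0.23 and an adjusted p of 0.06 to 0.069, or when the model held the cortical marker level (0.31, adjusted p = 0.0529) or that of oligodendrocytes (0.22, adjusted p = 0.213). With the mean of its probe sets in place of the brightest, Nlrc5 lay below the filter and was not tested. The rise is thus that of its brightest probe set. Irf1, a transcription factor gene of the interferon response below the filter, differed by 0.13 (SE 0.039) and passed as a rise when the filter was dropped (adjusted p = 0.0481). Erap1 and Tap1 of the same list, also below the filter, gave -0.13 (SE 0.054) and 0.075 (SE 0.045) and did not pass when it was dropped. The tested genes B2m and Tapbp gave -0.093 (SE 0.074) and 0.015 (SE 0.041) and did not pass. Around Psmb9 in the class II region of chromosome 17, Tap2, a peptide transporter gene, gave 0.12 (SE 0.064) and did not pass, and H2-DMa, a class II chaperone gene, rose by 0.35 (SE 0.065, adjusted p = 0.00247). Microglia markers, for a cell type rich in inducible subunits, had a mean of 8.61 to 8.77 among WT arrays and 8.56 to 8.72 among Rarb-null arrays, and limma called 0 of 9, with 4 at an unadjusted p under 0.05 and 0 by the exact permutation test.

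**Figure D4:**
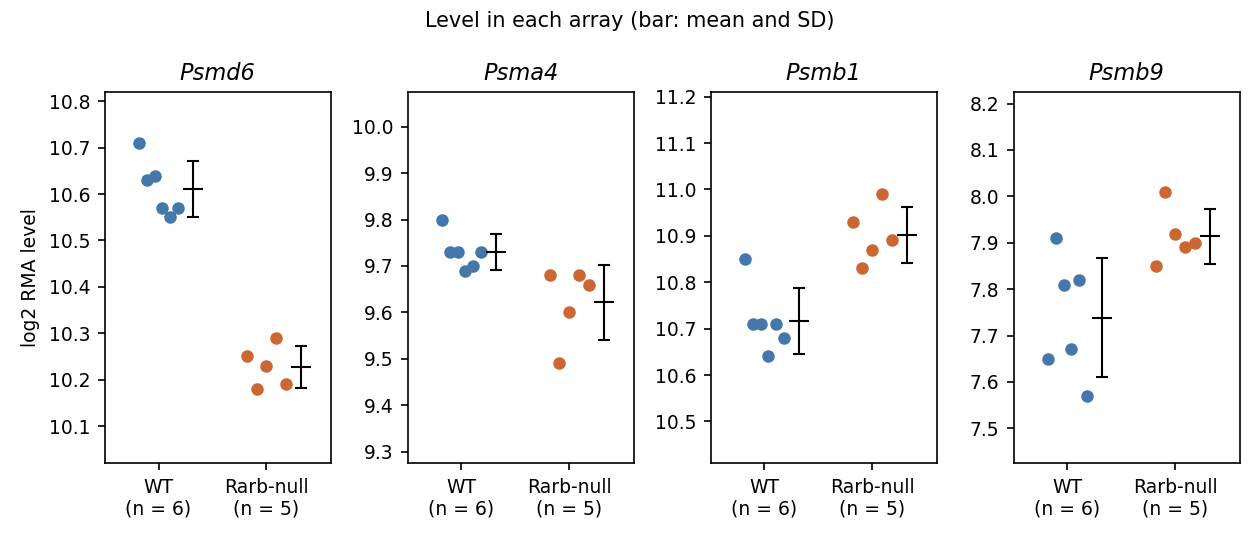
Log2 RMA level of Psmd6, Psma4, Psmb1 and Psmb9 in each array, with the mean and SD of each genotype (6 WT, 5 Rarb-null); every panel spans the same number of log2 units. The Psmd6 groups are separated by more than the range of either, those of Psma4 nearly touch, and those of Psmb1 and Psmb9 overlap through WT replicate 1 and WT replicate 2.

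Among the ATPases of the 19S base, which unfold substrates, limma called 0 of 6, the exact permutation test 0, and 1 had an unadjusted p under 0.05. That gene was Psmc6, which ran from 9.47 to 9.76 in WT, with a median of 9.55, and read 9.53, 9.32, 9.29, 9.52 and 9.46 in the Rarb-null arrays. Replicates 2 and 3 were low, and the others lay in or just under the WT range. The difference was -0.15 (SE 0.059, limma Benjamini-Hochberg adjusted p = 0.0958), and it passed under 1 of 23 alternatives, the block for the replicate number (adjusted p = 0.0374). Psmc1 gave -0.082 (SE 0.043), with -0.081 from its further probe set, and Psmc3 gave 0.079 (SE 0.036, adjusted p = 0.142). Psmc2, Psmc4 and Psmc5 lay between -0.026 and -0.018.

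Of the non-ATPase 19S subunits 1 fell and 10 did not pass, and the fall was the largest difference of any member. Psmd6 encodes a subunit of the lid, the part that holds the enzyme removing ubiquitin chains. It ran from 10.55 to 10.71 in WT, with a median of 10.60, and read 10.25, 10.18, 10.23, 10.29 and 10.19 in the Rarb-null arrays. The highest Rarb-null array lay 0.26 below the lowest WT array, and no array of either genotype stood apart. The difference was -0.39 (SE 0.036, 95% interval -0.46 to -0.31, 1.31-fold; limma Benjamini-Hochberg adjusted p = 1.02e-05). By p-value it ranked 90 of 11963 genes, and its exact permutation p was 0.00216 (adjusted 0.0267).

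The fall of Psmd6 passed the test in all 23 alternatives (-0.40 to -0.35, adjusted p 1.69e-06 to 0.000706). It was -0.37 to -0.40 whichever array was left out. The other 10 genes of the class, with the deubiquitinase gene Psmd14 (-0.039), the ubiquitin receptor gene Psmd4 (-0.013) and the scaffold genes Psmd1 (-0.047) and Psmd2 among them, lay between -0.057 (Psmd7) and 0.031 (Psmd3). None of the 10 passed by limma or by the exact permutation test, and 0 had an unadjusted p under 0.05. Their median was -0.030. The fall was thus that of a single lid gene, and the other lid genes with a Psmd name, Psmd3, Psmd7, Psmd8, Psmd11, Psmd12, Psmd13 and Psmd14, differed by less than 0.06 from WT. Sem1, the gene of a small lid subunit outside these names, gave -0.090 (SE 0.035, adjusted p = 0.083) and did not pass. Set against the 14 standard 20S genes within each array, the 17 genes of the 19S particle averaged -0.036 in Rarb-null arrays (-0.052 to -0.026), and the 16 without Psmd6 averaged -0.015 (-0.027 to -0.005), inside the WT range of -0.030 to 0.020.

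Psmd6 is a neighbour of Rarb. On chromosome 14 it is the 10th protein-coding gene before Rarb in the RefSeq order, and many genes around Rarb passed the test. Within 10 genes on each side of Rarb, 7 of 11 tested genes passed (63.6%, Psmd6 included; 2 higher and 5 lower), and within 20 genes 12 of 23 (52.2%; 5 higher and 7 lower), beside 19.6% of all genes; the difference in share was not tested. Oxsm, the 3rd gene before Rarb, fell by 0.34 (SE 0.051), and Atxn7, next to Psmd6, by 0.16 (SE 0.040). In mutants bred from heterozygous crosses on a mixed background, the null allele and the alleles of linked genes are inherited together, so loss of the receptor and linked strain alleles cannot be told apart for Psmd6. The other members on this chromosome were Psmc6, Psmb5, Psmb11, Psme1 and Psme2, which lie 247 to 410 genes from Rarb. None of them passed the test.

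**Figure D5:**
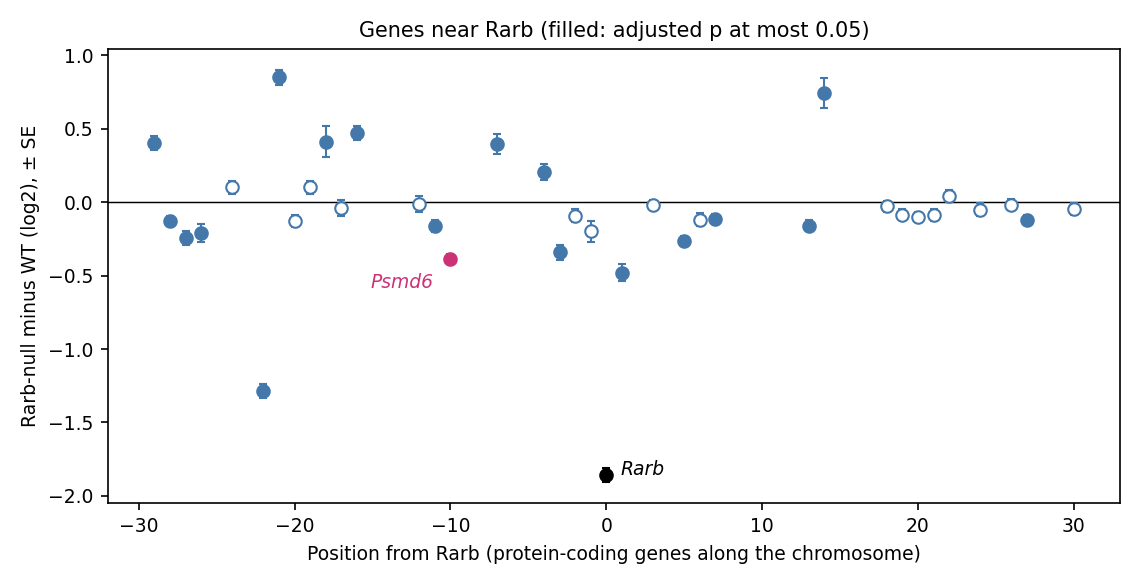
Log2 difference (Rarb-null minus WT, ± SE of the limma fit, 11 arrays) of tested genes by their position from Rarb, counted in protein-coding genes along chromosome 14; filled points had an adjusted p of at most 0.05. Psmd6, at 10 genes before Rarb and -0.39, stands among called genes of both directions.

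The genes of 19S assembly chaperones with a Psmd name did not pass (limma 0 of 3, exact permutation 0, unadjusted p under 0.05 0). Psmd10, which encodes gankyrin, gave -0.087 (SE 0.055, adjusted p = 0.271), Psmd9 0.022 (SE 0.036) and Psmd5 -0.005 (SE 0.046). The activator genes gave the same counts among 4. Psme3, the gene of the nuclear activator PA28 gamma, had the smallest p at 0.061 (SE 0.036, adjusted p = 0.237). Psme1 and Psme2, whose products form the interferon-inducible activator, gave 0.048 (SE 0.051) and 0.045 (SE 0.057), and Psme4 gave -0.022 (SE 0.054).

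Beyond the subunits, few of the genes that build, tune and feed the proteasome passed the test. Over all genes the shares were 19.6% by limma, 14.2% by the exact permutation test and 35.3% at an unadjusted p under 0.05. Differences of the lists from these shares were not tested. Of 15 assembly factors and proteasome-bound proteins 12 were tested, and 0 passed by limma or the exact permutation test, with 2 at an unadjusted p under 0.05. The smallest p was that of Sem1, given above with the lid. The core assembly gene Pomp gave -0.029 (SE 0.044) and the proteasome-bound deubiquitinase gene Usp14 -0.053 (SE 0.032). The median of the list was -0.044. Among 7 tested regulators of proteasome gene transcription 0 passed by either test, with 3 at an unadjusted p under 0.05. Mafg, a partner of Nfe2l1, had the smallest p (0.092, SE 0.033, adjusted p = 0.0659) and passed as a rise of 0.13 under each of the 3 other scalings (adjusted p 0.00923 to 0.0102). The others of these 3 were Mafk, at 0.10 (SE 0.044, limma adjusted p = 0.113), and Nfe2l2. Nfe2l2 lay in the other direction, at -0.18 (SE 0.076, limma adjusted p = 0.108). Nfe2l1 itself read 11.08 in WT arrays and 11.12 in the mutants, a difference of 0.033 (SE 0.028, adjusted p = 0.421). Ngly1, whose product activates Nfe2l1 by removing its sugar chains, lies 2 genes from Rarb and gave -0.091 (SE 0.044, adjusted p = 0.152).

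Of 10 tested genes of ubiquitin activation, ubiquitin shuttling and the Vcp unfoldase, 1 fell and 9 did not pass, and the median was 0.019. The fall was Faf1, the gene of a Vcp cofactor, at -0.14 (SE 0.046, limma Benjamini-Hochberg adjusted p = 0.0428; 0 of the 10 by the exact permutation test). It was lost under 16 of 23 alternatives, among them all 3 other scalings (-0.11 to -0.10, adjusted p 0.0989 to 0.115) and the omission of WT replicate 1, 4, 5 or 6 or of Rarb-null replicate 2, 3 or 5 (adjusted p 0.0732 to 0.0955). Vcp gave -0.029 (SE 0.031) and the autophagy receptor gene Sqstm1 0.015 (SE 0.033).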

How the data were processed

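RNA of 11 nucleus accumbens samples was measured on 1 array each, from bilateral 0.5 mm punches of 3 sections of 300 µm, with 100 ng of RNA labelled, per the labels' protocols. The authors deposited log2 expression values made by RMA, per the labels; base 2 was inferred from their range. Software, annotation and batches are not given in the sources used here. RMA subtracts background, equalises array distributions and compresses folds of dim probe sets.

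Of 35556 probe sets, 21789 had 1 symbol, 1621 several and 12146 none in the annotation table; 21698 of the single-symbol probe sets were matched by Entrez identifier to RefSeq (GRCm38.p6) for current symbols. The brightest probe set stood for a gene, and genes above the 40th percentile of mean level were tested with limma 3.58.1 in R 4.3.3 (lmFit, eBayes, no covariates). Exact permutation tests used all 462 splits. Signal over background was not measured; the number of arrays limits precision. The fit was tested on simulated data. Figures used matplotlib 3.10.9.

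The members and lists, from textbook knowledge, were chosen with earlier results of these data known. Genes described in full were called members, the smallest p of each class, members nearest the threshold, standard and inducible pairs, members on the chromosome of Rarb, and called or smallest-p genes of each list. The other members and Psma4, Tbp, Fam120b, Oxsm, Atxn7, Tap1, Tap2, Tapbp, Erap1, B2m, Irf1, Gfap, Drd1, Drd2, Tac1, Pdyn, Penk, Fezf2, H2-DMa, Pomp, Usp14, Nfe2l1, Nfe2l2, Mafk, Ngly1, Vcp and Sqstm1 were named after their values were seen.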

Additional observations from a re-analysis of the deposited data

Results flagged for a closer look

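Among 88 groups of arrays (43 members and Rarb in each genotype), 8 held an array whose gap to its nearest neighbour was large for the range of the group, and chance gives about 1 in 20. In WT, replicate 1 was highest for Psma4 (9.80, next 9.73) and for Psmb1 (10.85, next 10.71), and replicate 6 was lowest for Psmb2 (11.53, next 11.57) and Psmb8 (5.53, next 5.78). In the Rarb-null group, replicate 5 was highest for Psmb3 (12.14), Psmb10 (8.78, next 8.56) and Psmd2 (11.45, next 11.40), and replicate 3 was lowest for Psmc2 (9.36, next 9.47). Without WT replicate 1 the rise of Psmb1 was 0.21 (adjusted p = 0.0017). The largest cortical marker level of the Rarb-null arrays, 8.59, was also that of replicate 5; its part in these values was not tested.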

How the results depend on the processing

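The count of called members was 3. It was 5 with arrays centred, 5 with the block for the replicate number and 6 at a threshold of 0.1. The shares of all genes called were then 21.9%, 24.0% and 28.9%. With the cortical marker level, the oligodendrocyte marker level or the 3 arrays of extreme cortical marker level left out it was 1, Psmd6, and limma then called 1183 (9.89%), 810 (6.77%) and 1347 (11.3%) of all genes in place of 2341. At a threshold of 0.01 limma called 970 of all genes and at 0.1 3460, and without Rarb-null replicate 3 it called 1547. Leaving out single arrays gave 2 to 4 called members and a median of -0.029 to -0.008. The median was 0.019 with arrays centred. Rarb and Psmd6 kept direction and call in all 23 alternatives, Rarb from -1.895 to -1.78. Uncalled differences near 0 changed sign. With arrays centred Psmb7 gave 0.009 and Psmb10 0.018, and Psmb10 gave 0.019 with repeated quantiles and 0.005 with cyclic loess. With the cortical covariate Psmb5, Psmb6, Psme1 and Psme2 gave -0.004, -0.015, -0.023 and -0.021. With the oligodendrocyte covariate Psmb5, Psmb6, Psmb7, Psmb10, Psme1 and Psme2 gave -0.041, -0.016, 0.008, 0.011, -0.003 and -0.046. Leaving out single arrays gave -0.014 to 0.029 for Psmb5, -0.004 to 0.037 for Psmb6 and -0.075 to 0.008 for Psmb10. The cause was not tested. The labels do not say whether the replicate numbers of the titles mark pairs of arrays, and a factor shared by number was not tested. Residuals of same-numbered arrays correlated at 0.0557 to 0.425, not all over 0.1, and 3 of 5 WT arrays matched their own number best. With the number as a block limma called 5 members (Psma3 and Psmc6 beside the 3) and 2872 genes in place of 2341, and Psmb5 gave -0.014. In that fit WT replicate 6 had no Rarb-null partner and did not add to the differences, which equal those without that array (Psmb9 0.142 in both). With 11 arrays and half-widths of 0.056 to 0.152, smaller differences in subunit genes were not detectable. These intervals are not adjusted for the number of genes, and some larger differences did not pass the adjusted threshold either. Those of Psma3 (-0.17), Psma4 (-0.11) and Psmc6 (-0.15) exceeded their half-widths and were not called.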
